A study of Mus musculus with 14 samples.

Results

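The actin cytoskeleton genes described here are 38 genes chosen by symbol from what they are known to do, out of 19322 genes listed at E10 and 19424 at E11. All 38 were found in the single cell tables of both stages and in the table of whole intra-aortic hematopoietic clusters (wIAHCs). They fall into 7 classes by role. The classes are 8 genes for actin itself and the proteins that handle its monomers, 8 subunits of the Arp2/3 complex, 3 capping protein subunits, 8 contractile genes (myosin and tropomyosin), 4 adhesion and crosslinking genes, 4 genes for vimentin and the ERM proteins, and 3 further genes. Single cells from mouse embryos were sorted along the endothelial-to-hematopoietic transition (EHT) and read by CEL-Seq, which counts 1 tag near the 3′ end of each transcript, so that the counts of long and short genes can be set side by side. Endothelial cells without hemogenic activity (non-HE, Cdh5+Gfi1-Gfi1b-c-kit-), hemogenic endothelium (HE, Cdh5+Gfi1+Gfi1b-c-kit-) and EHT cells (Cdh5+Gfi1+Gfi1b-c-kit+) came from ICR embryos carrying the reporters Gfi1 tomato and Gfi1b GFP. Wild type C57BL/6 embryos gave the cells of intra-aortic hematopoietic clusters (IAHC, sorted as c-kit+CD31+ at E10 and as c-kit+CD31+ or c-kit+ at E11), type I and type II pre-HSCs at E11, yolk sac hematopoietic progenitors (YS HSPCs) and the wIAHCs. Pooling of tissues is stated for the IAHC sorts and not for the other sorts in the sources used here. The strain, the reporter alleles and the population cannot be told apart in any comparison of HE or EHT cells with IAHC cells, whereas HE and EHT cells share strain and reporters. The columns of the E10 non-HE cells carry E11 in their names, and these cells were placed at E10 by their labels.

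Actin monomers polymerise into filaments, and profilin, cofilin and the thymosins set how many monomers are free to do so. The Arp2/3 complex starts new filaments as branches on existing ones and builds the sheet-like protrusions of motile cells, whereas non-muscle myosin, sliding along filaments coated by tropomyosin, makes cortex and stress fibres contract. An endothelial cell that leaves the aortic wall gives up its flat shape and its junctions, and both kinds of network are at work in such a shape change.

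Many genes of the cytoskeleton carry in their promoter a CArG box, the element that serum response factor binds. It was searched on both strands in the 250 bases before each start site in the RefSeq promoter table (GRCm38.p6), in which 36 of the 38 genes had an entry. The promoters of Actg1, Arpc4, Myl6, Myl9 and Vcl held one, which is 13.9% of the members, against 1.6% of all 27025 genes (439). These stretches are shown since members of the contractile and the Arp2/3 classes, which part from each other below, both have the element (the box in capitals, 5′ to 3′ on the strand of the gene).

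Myl9, chr2:156775283-156775332, plus strand: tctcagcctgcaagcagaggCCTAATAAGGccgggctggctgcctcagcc
Myl6, chr10:128493030-128493079, minus strand: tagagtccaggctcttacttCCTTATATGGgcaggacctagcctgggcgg
Arpc4, chr6:113377863-113377892, plus strand: CCTAATTTGGtgcccaacctgaggtcgggc
Actg1, chr11:120348556-120348605, minus strand: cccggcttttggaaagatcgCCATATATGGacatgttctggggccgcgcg
Vcl, chr14:20929151-20929200, plus strand: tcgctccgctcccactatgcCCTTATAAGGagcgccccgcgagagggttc

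The first base of the box lay 161 bases before the start site in Myl9, 50 in Myl6, 250 in Arpc4, 90 in Actg1 and 227 in Vcl. A second search, for the hexamer TATAAA or its complement TTTATA, found it in 3 promoters, among them those of Vim and Myh9, 8.33% of the members against 14.3% of all genes. Vim, the member with the clearest course along the transition, had it 32 bases before its start site (in capitals).

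Vim, chr2:13574161-13574310, plus strand: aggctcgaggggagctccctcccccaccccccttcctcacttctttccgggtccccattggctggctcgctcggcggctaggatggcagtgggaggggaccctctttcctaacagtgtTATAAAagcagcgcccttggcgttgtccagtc

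These matches describe letters in a window and no binding was measured.

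At E10 the table held 43 non-HE, 98 HE, 191 EHT, 73 IAHC and 141 YS HSPC cells, each brought down to 3000 transcripts, and at E11 30 non-HE, 46 HE, 46 EHT, 62 type I and 55 type II pre-HSC, 290 IAHC and 46 YS HSPC cells at 5000 transcripts. Levels are therefore compared within a stage. Each population was 1 sample per stage, except that E11 IAHC cells were 2 samples and that type I and type II pre-HSCs, divided by the CD45 level recorded at sorting, came from 1 sample, so no test between populations was possible. The intervals given are 95% intervals for counting error only, and the sorted sets of a population (cells whose columns share a name) are the only repeats. Each set holds cells of 1 population. E11 HE and E11 EHT cells were 1 set each, so their differences cannot be told apart from differences between sets. How many of all genes had sets that did not overlap between populations was not counted. The labels were compared with marker genes. The marker lists used include Cdh5, Pecam1 and Kit, whose proteins served in the sorts, and Gpr56, by whose transcripts the paper chose IAHC cells. The sums below therefore follow in part from the sorting and selection. The summed level of 8 endothelial markers was 16.9, 7.24 and 4.97 transcripts per cell in E10 HE, EHT and IAHC cells, and that of 8 hematopoietic markers 1.74, 7.74 and 10.7. All 7 macrophage markers were seen in E11 EHT cells, at a summed 3.91 transcripts per cell against 0.087 in E11 HE cells, and 3 of the 46 EHT cells held 4 or more of them. Smooth muscle markers summed to between 0.0217 and 1.11 transcripts per cell over all populations.

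The 38 genes together took a smaller share of the transcriptome as cells became hematopoietic. They made up 4.14% of all transcripts in E10 non-HE cells, 4.30% in HE, 3.67% in EHT, 3.13% in IAHC and 2.38% in YS HSPC cells. At E11 the shares were 3.73%, 3.13% and 2.87% in non-HE, HE and EHT cells, 2.36% and 2.2% in type I and type II pre-HSCs, 2.27% in IAHC and 2.01% in YS HSPC cells. The decline was not shared by all classes, which the plot of members by population shows.

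**Figure D1:**
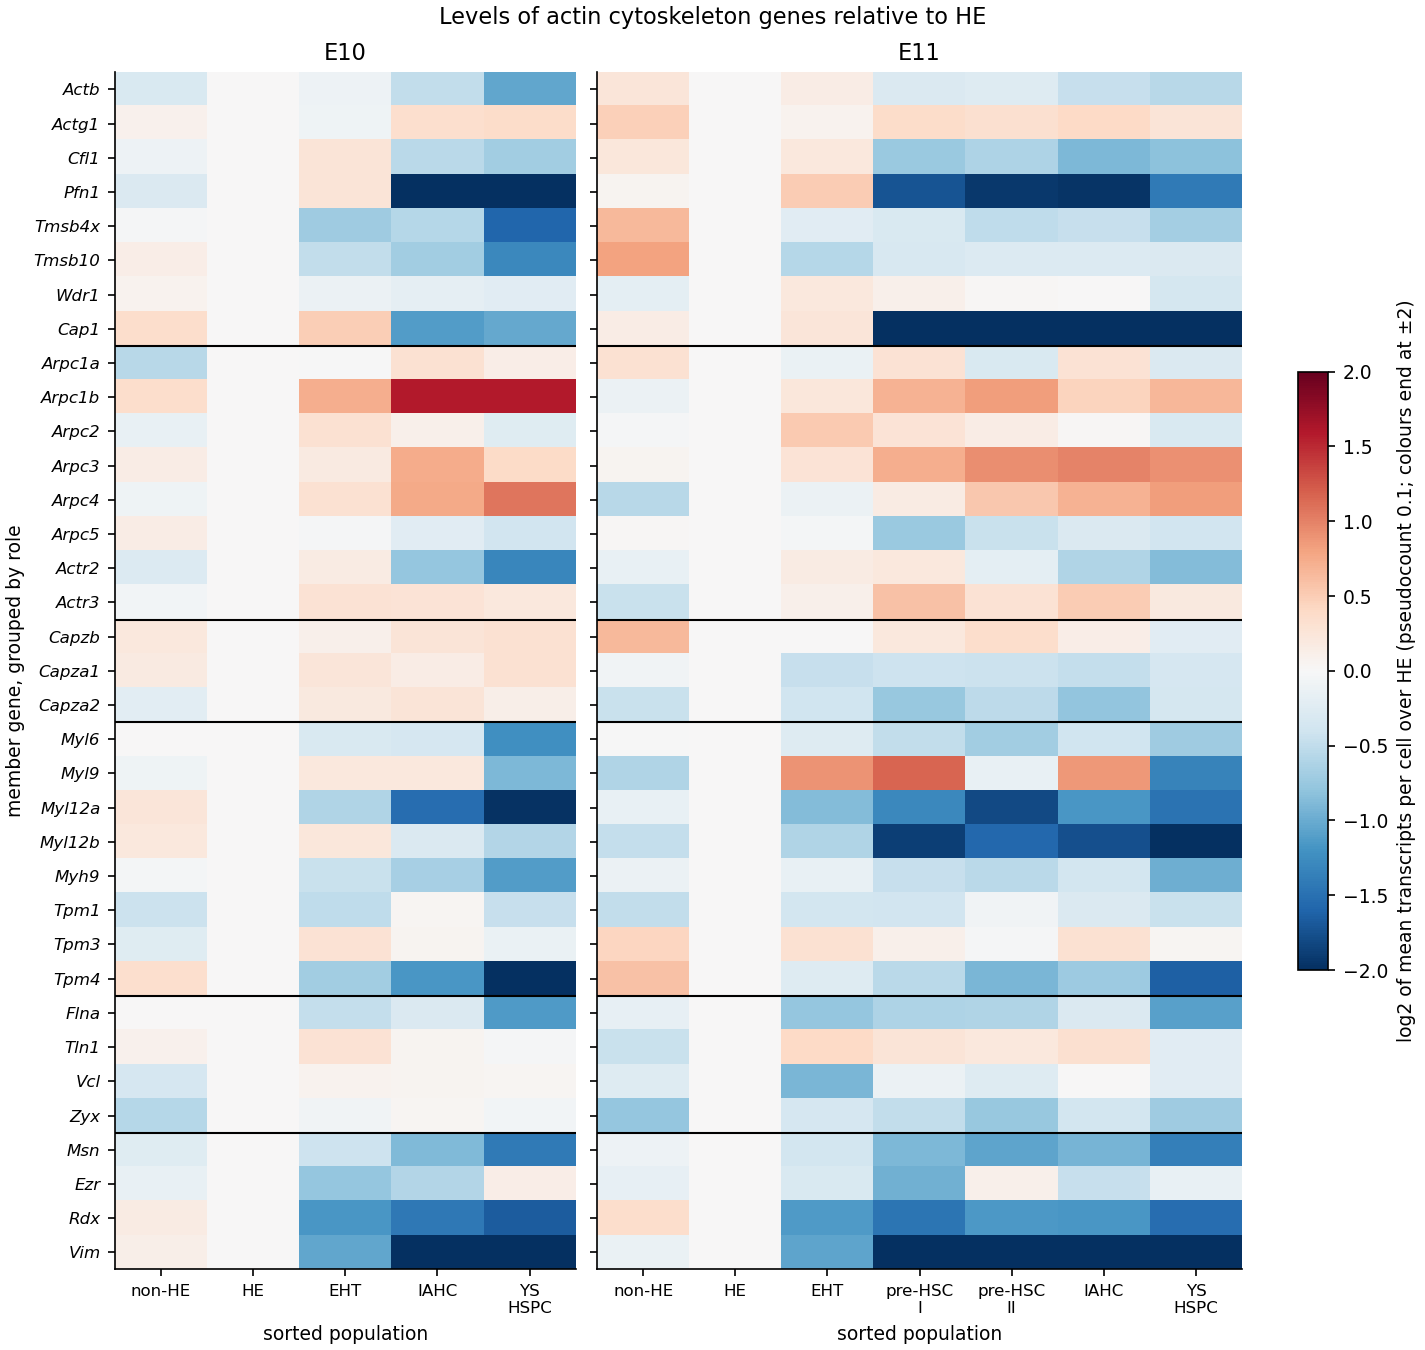
Level of the members of the first 6 classes in each population, as log2 of the mean transcripts per cell relative to the HE cells of the same stage, with genes in rows grouped by class. Vim and Rdx turn lower at the EHT column at both stages, Pfn1 and Cap1 at the IAHC column, and Arpc1b is higher in every population of the C57BL/6 embryos than in HE.

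The contractile and the Arp2/3 classes differed in opposite directions along the path. Summed over its 8 genes, the contractile class stood at 15.6 transcripts per cell (14.8 to 16.4) in E10 HE, 12.8 (12.3 to 13.4) in EHT and 10.7 (10 to 11.52) in IAHC cells. The 8 Arp2/3 genes summed to 8.23 (7.68 to 8.82), 10.1 (9.63 to 10.54) and 11.6 (10.9 to 12.4) in the same cells. The Arp2/3 sum was thus above the contractile one in E10 IAHC cells, with overlapping intervals. Arpc1b alone went from 1.64 in E10 EHT to 3.08 in IAHC cells, so nearly all of the rise of the E10 sum over that step came from this 1 gene. Over all E11 IAHC cells the contractile sum stayed the higher. At E11 the contractile sum was 21.9 (20.6 to 23.3), 17.7 (16.5 to 18.9) and 15.0 (14.6 to 15.5) transcripts per cell in HE, EHT and IAHC cells and the Arp2/3 sum 11.6 (10.7 to 12.7), 13.5 (12.48 to 14.6) and 14.4 (13.9 to 14.8), the Arp2/3 intervals of neighbours overlapping. Of the 2 E11 IAHC samples, the c-kit+CD31+ one had the contractile sum higher (15.6 against 13.9) and the c-kit+ one the Arp2/3 sum (13.7 against 15.4). Single cells overlapped widely. The contractile sum ranged from 4 to 30 with a median of 15 in E10 HE cells and from 4 to 20 with a median of 11 in E10 IAHC cells, while the Arp2/3 sum ranged from 1 to 21 with a median of 8 and from 4 to 20 with a median of 12.

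As a ratio of the summed contractile to the summed Arp2/3 transcripts, E10 non-HE cells had 1.99 (1.74 to 2.27), HE cells 1.89 (1.74 to 2.07), EHT cells 1.27 (1.199 to 1.352), IAHC cells 0.923 (0.837 to 1.02) and YS HSPCs 0.660 (0.609 to 0.716). Non-HE and HE cells had overlapping intervals, and each later population lay below the one before it. At E11 the ratio was 2.04 (1.78 to 2.34) in non-HE, 1.89 (1.697 to 2.1) in HE, 1.307 (1.18 to 1.45) in EHT, 1.05 (1.00 to 1.09) in IAHC, 0.958 (0.873 to 1.05) in type I pre-HSC, 0.824 (0.743 to 0.914) in type II pre-HSC and 0.847 (0.753 to 0.954) in YS HSPC cells. Among the last 4 of these, the intervals of type I pre-HSCs, type II pre-HSCs and YS HSPCs overlapped each other, and that of IAHC cells overlapped type I pre-HSCs only. Type I and type II pre-HSCs each came in 3 sets with the same numbers. The ratio was lower in type II in each pair, at 0.962 and 0.715, 1.002 and 0.921, and 0.875 and 0.744, which was not tested since the sets are parts of 1 sample. From HE to EHT cells the ratio was lower by 0.57 on the log2 scale at E10 (interval 0.42 to 0.73) and by 0.53 at E11 (0.31 to 0.75). From EHT to IAHC cells it was lower by a further 0.46 (0.30 to 0.63) and 0.32 (0.16 to 0.49). The E10 value at this step rests in part on Arpc1b, and the ratio without that gene was not computed. The E11 value was -0.55 with the c-kit+ sample alone and also without the most abundant gene of each class (Myl6 and Arpc2). With the c-kit+CD31+ sample alone, the sort used at E10, the E11 drop was smaller. That sample had a ratio of 1.1 (1.06 to 1.18), and its interval overlapped that of E11 EHT cells.

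At E10 the HE to EHT difference in the ratio held in every sorted set. The 2 E10 HE sets had ratios of 2.17 and 1.75 and the 3 E10 EHT sets 1.25, 1.45 and 1.213, so that the groups of sets did not touch. With the second HE set left out the E10 change was -0.77 on the log2 scale. The 9 sets of E11 IAHC cells ran from 0.758 to 1.25, the highest of them just short of the single E11 EHT set at 1.307. The c-kit+CD31+ sample had 1.1 (1.06 to 1.18) and the c-kit+ sample 0.895 (0.828 to 0.967), so the 2 sorts of the same population differed by more than counting error. Leaving out the 3 E11 EHT cells with macrophage markers gave -0.50 for HE to EHT at E11 in place of -0.53.

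**Figure D2:**
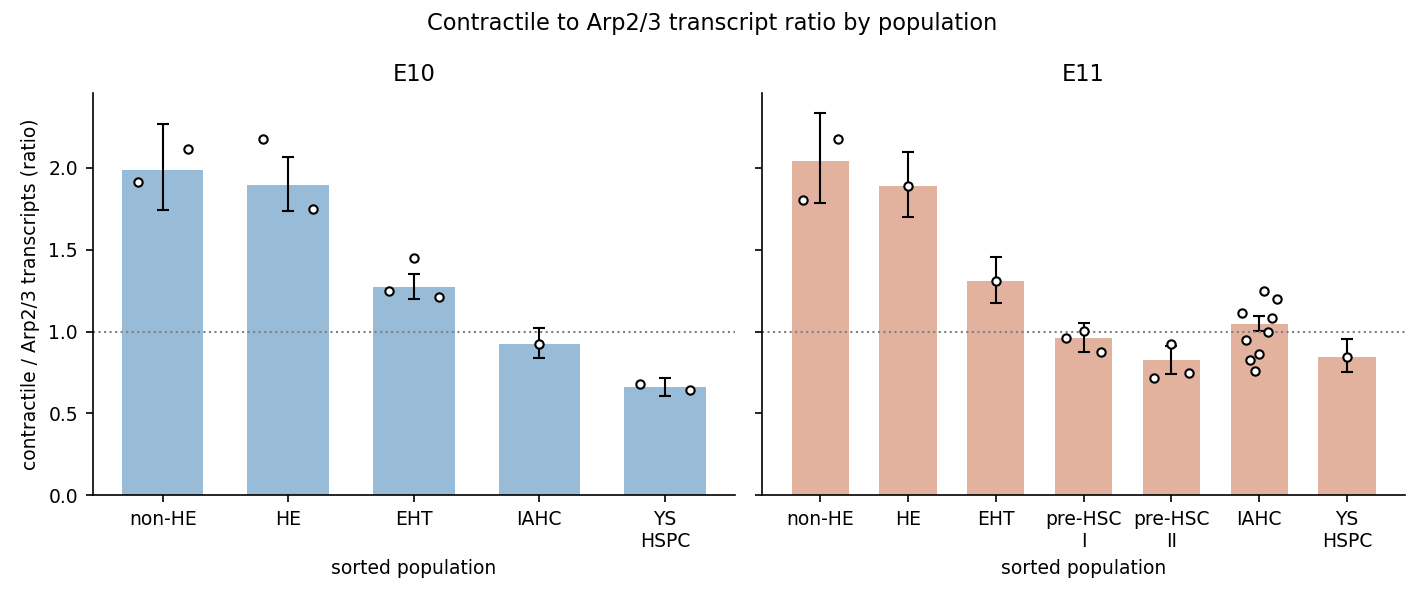
Ratio of summed contractile to summed Arp2/3 transcripts (linear axis from 0) for each population at each stage; bars are the ratio over all cells, error bars its 95% counting interval and points the sorted sets. The ratio is near 2 in non-HE and HE cells, 1.27 and 1.307 in EHT cells, and between 0.660 and 1.05 in the populations of the C57BL/6 embryos.

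Of the contractile genes, Myl12a, a regulatory light chain of non-muscle myosin, differed most from HE to IAHC at E10 (log2 -1.52) and its near copy Myl12b at E11 (-1.75). Myl12a stood at 3.42 transcripts per cell in E10 HE, 2.23 in EHT and 1.123 in IAHC cells, with HE sets at 3.03 and 3.66 and EHT sets at 2.06, 2.67 and 2.14. At E11 its levels were 5.67, 3.07 and 2.48. The E10 sets of HE and EHT did not overlap, and the log2 difference was -0.60 (-0.83 to -0.41) at E10 and -0.87 (-1.19 to -0.59) at E11. Myl12b, whose reads can be hard to tell from those of Myl12a, had 2.35, 1.522 and 0.628 transcripts per cell in E11 HE, EHT and IAHC cells but 0.510, 0.618 and 0.397 at E10, where it did not follow Myl12a at the first step. Myl6, the essential light chain, was the most abundant of the class and was lower by 0.31 at E10 and 0.26 at E11 on the log2 scale from HE to EHT (4.76 to 3.82 and 6.33 to 5.26 transcripts per cell), with overlapping sets at E10. Myh9, the heavy chain of non-muscle myosin IIA, went from 1.41 to 1.01 and 0.849 transcripts per cell over HE, EHT and IAHC at E10 and from 1.67 to 1.5 and 1.27 at E11. Myl9, the smooth muscle light chain, was below 0.5 transcripts per cell in every population.

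The tropomyosins, which coat filaments and set which myosin can use them, did not act as a block. Tpm4 was lower at every step at E10, with 1.78, 1.06 and 0.740 transcripts per cell in HE, EHT and IAHC cells and 0.262 in YS HSPCs. At E11 its levels were 1.761, 1.46, 1.02 and 0.5 in the same order. Tpm3 went the other way from HE to EHT, from 2.67 to 3.30 transcripts per cell at E10 (log2 0.30, interval 0.10 to 0.52) and from 3.02 to 3.76 at E11 (log2 0.31, interval -0.01 to 0.65, which includes 0). Tpm1 was 0.908, 0.607 and 0.932 in E10 HE, EHT and IAHC cells and 0.978, 0.739 and 0.783 at E11. Among the 7 contractile genes that reached 0.5 transcripts per cell, 5 were lower in EHT than in HE at E10 (median log2 -0.45) and 6 at E11 (median -0.26), beside medians over all genes of 0.05 and -0.05. From EHT to IAHC 6 of 7 were lower at each stage.

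The Arp2/3 subunits are needed together for a working complex, but their transcripts did not move as 1 unit. Arpc1b, one of a pair of alternative versions of a subunit, was higher at each step at E10, from 0.959 transcripts per cell in HE (sets 0.595 and 1.18) to 1.64 in EHT (sets 1.61, 2.23 and 1.4) and 3.08 in IAHC. Every EHT set lay above both HE sets and below the IAHC level. At E11 its levels were closer together, with 1.89 in HE, 2.22 in EHT, 2.61 in IAHC, 3.11 in type I and 3.47 in type II pre-HSC cells, and the interval of the HE to EHT difference included 0 (log2 0.22, -0.20 to 0.66). Its counterpart Arpc1a stayed between 0.349 and 0.800 transcripts per cell in all populations. Arpc2, a scaffold subunit, had its highest level in EHT cells at both stages, with 2.08, 2.59 and 2.23 transcripts per cell in HE, EHT and IAHC at E10 and 2.78, 4.02 and 2.83 at E11.

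Arpc3 and Arpc4 were higher at the second step. Arpc3 had 1.08, 1.241 and 1.88 transcripts per cell in E10 HE, EHT and IAHC cells and 1.28, 1.565 and 2.652 at E11, and Arpc4 had 0.724, 0.916 and 1.30 at E10 and 1.02, 0.935 and 1.72 at E11. From EHT to IAHC the log2 differences were 0.56 and 0.72 for Arpc3 and 0.46 and 0.82 for Arpc4, with intervals above 0. Actr2, which with Actr3 forms the actin-like seed of a branch, was lower in IAHC than in EHT cells at both stages (log2 -0.94, interval -1.63 to -0.55, and -0.77, interval -1.26 to -0.41). Arpc2 was lower too, by 0.21 and 0.49 on the log2 scale, with an interval below 0 at E11 only (-0.74 to -0.27). Actr3 was 1.06 and 1.04 transcripts per cell in E10 EHT and IAHC cells and 1.217 and 1.66 at E11. Arpc5 differed by no more than 0.26 on the log2 scale at either step, with intervals that included 0. From HE to EHT 6 of 8 subunits were higher at E10 and 5 of 8 at E11 (median log2 0.24 and 0.13). The medians over all genes were 0.05 and -0.05. From EHT to IAHC 4 and 5 of 8 were higher (median 0.14 and 0.32), beside 0.11 and 0.01 over all genes. At E10 the class median was thus close to that of all genes at this second step. The share of all genes that were higher was not counted.

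**Figure D3:**
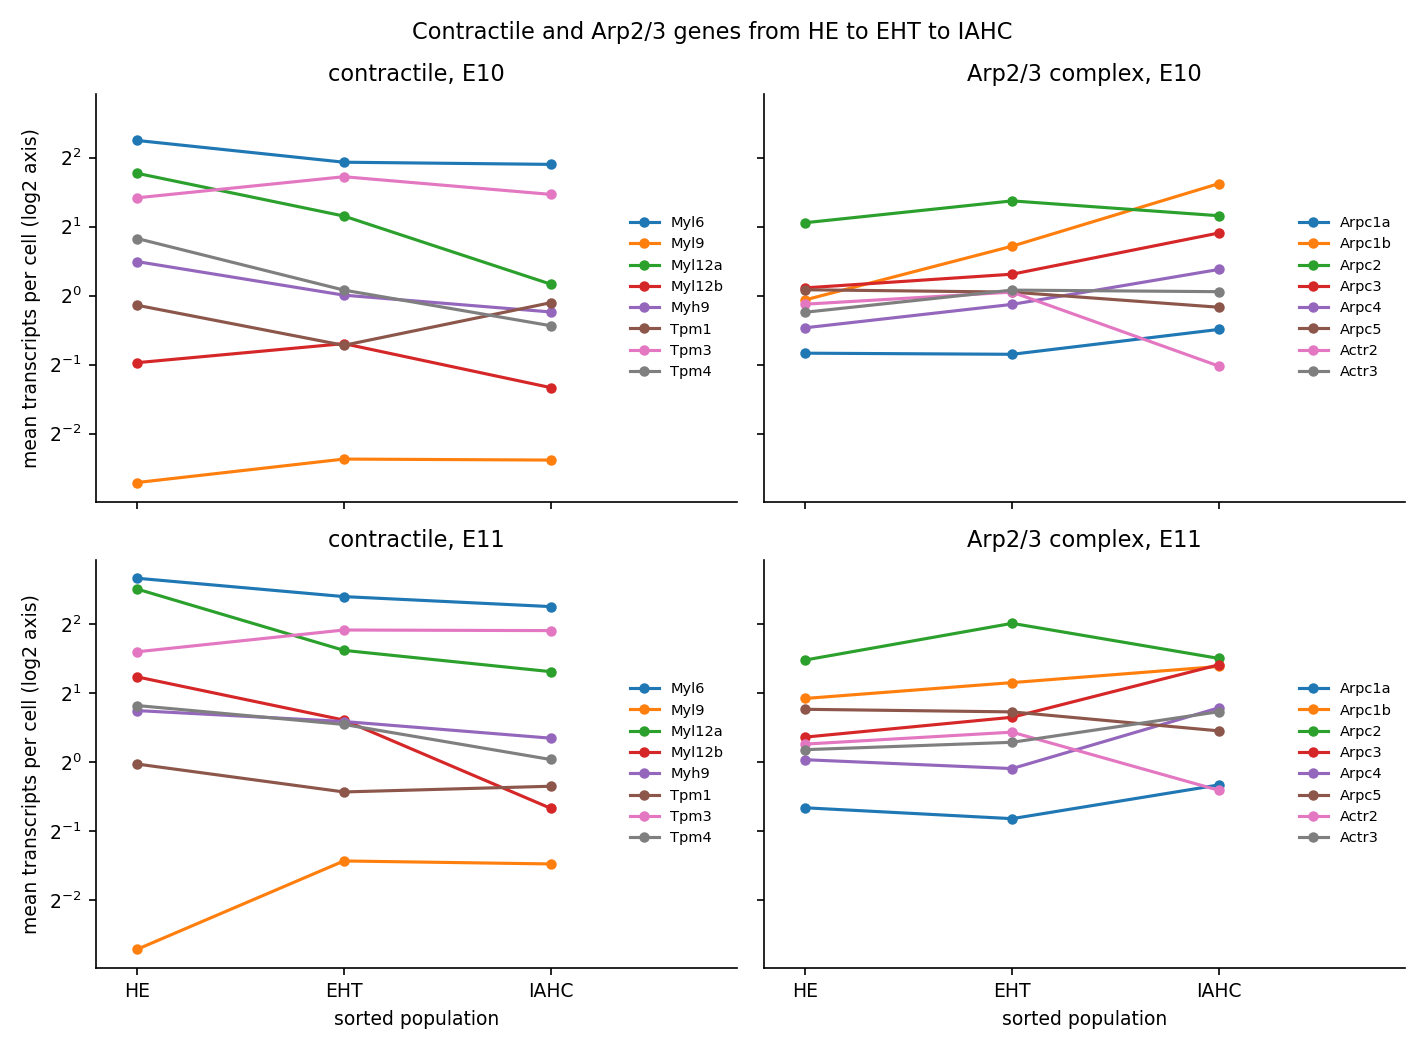
Mean transcripts per cell of the contractile and the Arp2/3 genes over HE, EHT and IAHC cells at each stage, with 1 line per gene. From HE to IAHC cells Myl12a and Tpm4 run downward and Arpc1b and Arpc3 upward, while Tpm3 is higher from HE to EHT and Actr2 lower from EHT to IAHC.

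Of all members, those past 2-fold from HE to EHT were the same 2 genes at both stages, Vim and Rdx, both lower. Genes were compared if 1 of the populations had 0.5 or more transcripts per cell. At E10 it was 2 of 32 members, where 14.2% of the 1566 genes compared were past 2-fold in either direction. At E11 it was 2 of 36, beside 18.4% of 2554 genes. The calls lay close to the threshold. With a pseudocount of 0.5 in place of 0.1 Vim was at -0.98 and Rdx at -0.86 at E10, so that neither was past 2-fold, and Rdx at -0.90 at E11. At E11 Rdx was at -0.88 in cells thinned to 3000 transcripts, and Vim fell just short after centring on the median gene. The share of members past 2-fold did not exceed that of all genes, and the median log2 difference was -0.08 at E10 and -0.16 at E11 beside 0.05 and -0.05 over all genes.

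Vim encodes vimentin, the intermediate filament of mesenchymal and endothelial cells. Its level in E10 cells was 9.77 transcripts per cell in non-HE, 8.96 in HE, 4.31 in EHT, 1.616 in IAHC and 0.809 in YS HSPCs. The 2 HE sets were at 9.38 and 8.70 and the 3 EHT sets at 4.31, 4.35 and 4.29, far apart between the populations and close within them. The log2 difference from HE to EHT was -1.04 (-1.20 to -0.92), and from EHT to IAHC a further -1.36 (-1.71 to -1.13). At E11 Vim stood at 12.7 in non-HE, 13.8 in HE, 6.63 in EHT, 3.11 in type I pre-HSC, 2.02 in type II pre-HSC, 2.35 in IAHC and 1.348 in YS HSPC cells. The same step was -1.05 (-1.26 to -0.86) and the next one -1.46 (-1.69 to -1.30). The 9 IAHC sets at E11 ran from 1.571 to 3.47, all below the EHT cells. Without the 3 EHT cells with macrophage markers these E11 differences were -1.24 and -1.27. In the 191 E10 EHT cells Vim ran along with the summed endothelial markers (Spearman rho 0.58) and against the hematopoietic ones (rho -0.32), each cell holding the same total number of transcripts. In E10 IAHC, E11 IAHC, type I and type II pre-HSC cells rho was 0.27, 0.31, 0.35 and 0.06 with the endothelial and 0.06, -0.04, 0.06 and -0.09 with the hematopoietic markers.

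Rdx encodes radixin, which with moesin and ezrin ties the actin cortex to the plasma membrane. It had 1.81, 1.61, 0.665, 0.534 and 0.440 transcripts per cell in E10 non-HE, HE, EHT, IAHC and YS HSPC cells. The HE sets were at 1.38 and 1.75 and the EHT sets at 0.781, 0.550 and 0.632, without overlap. At E11 the level was 2.73, 2.13, 0.913 and 0.893 in non-HE, HE, EHT and IAHC cells. The HE to EHT difference was -1.16 (-1.63 to -0.93) and -1.14 (-1.78 to -0.69), whereas from EHT to IAHC the intervals included 0 at both stages (-0.27 and -0.03), so that, unlike Vim, Rdx reached its low level in EHT cells. Msn, moesin, was lower at each step, with 1.83, 1.346 and 0.945 transcripts per cell at E10 and 2.91, 2.239 and 1.483 at E11. Its interval from HE to EHT at E11 included 0 (log2 -0.37, -0.76 to 0.002). Ezr, ezrin, was below 0.4 transcripts per cell in every population.

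From EHT to IAHC Vim was past 2-fold lower again, and Rdx was not. At E10 the members past 2-fold were Pfn1 and Vim, 2 of 32 members beside 10.4% of 1546 genes past 2-fold in either direction. At E11 they were Pfn1, Vim, Cap1, Cfl1 and Myl12b, 5 of 36 beside 17.5% of 2352 genes. Of the 2 populations compared, Cap1 reached 0.5 transcripts per cell in EHT cells only at E11 (0.609 against 0.0379 in IAHC cells), which fixed its direction. At E10 it reached 0.5 in neither and was not compared. No member was past 2-fold higher at this step at either stage. The median member differed by -0.18 at E10 and -0.10 at E11, beside 0.11 and 0.01 over all genes.

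Pfn1, profilin 1, loads actin monomers onto growing filament ends. Its level was 6.72 in non-HE, 8.21 in HE and 9.81 in EHT cells at E10 (HE sets 7.62 and 8.57, EHT sets 8.03, 13.4 and 9.48, which overlap), but 1.77 in IAHC and 1.206 in YS HSPC cells. At E11 it was 8.73, 8.43 and 12 in non-HE, HE and EHT cells and 2.09 in IAHC, 2.48 in type I pre-HSC, 2.15 in type II pre-HSC and 3.11 in YS HSPC cells. Over all cells Pfn1 was higher in EHT than in HE cells at both stages (log2 0.25, interval 0.14 to 0.38, and 0.51, interval 0.32 to 0.70), and then lower by 2.41 (2.22 to 2.74) and 2.47 (2.35 to 2.69) on the log2 scale. The split followed the strain and the sorts that go with it. Among 33 members compared, Pfn1 and Vim alone had every level of the ICR populations more than 2-fold above every level of the C57BL/6 populations at both stages, as had 1.71% of all 2164 genes compared, and no member had the reverse, as had 0.416%.

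Pfn1 also varied between sets of 1 population. The 4 sets of the E11 c-kit+CD31+ sample had 5.36, 1.86, 1.82 and 2.09 transcripts per cell and the 5 sets of the c-kit+ sample 0.200, 0.438, 0.640, 1.286 and 0.577. All sets of one sort lay above all sets of the other. The second set of type I and of type II pre-HSCs stood at 3.44 and 3.08, against 0.900 to 1.6 in the other 4 pre-HSC sets. The log2 difference from EHT to IAHC at E11 was -2.08 with the c-kit+CD31+ sample alone, -4.20 with the c-kit+ sample alone and -3.00 without the set at 5.36. Pfn1 has many processed copies in the genome, and how reads that match several places were counted is not given in the sources used here.

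Cap1, which recycles monomers from cofilin to profilin, had low levels throughout and was, like Pfn1, lower in the C57BL/6 populations. It had 0.326, 0.235 and 0.372 transcripts per cell in E10 non-HE, HE and EHT cells and 0.0548 and 0.0638 in IAHC and YS HSPC cells. At E11 it had 0.567, 0.5 and 0.609 in non-HE, HE and EHT cells and between 0.0364 and 0.0484 in the other 4 populations. The log2 difference from EHT to IAHC at E11 was -2.36, with 0.1 transcripts per cell added to both levels. In the wIAHCs, which are also from C57BL/6 embryos, a Cap1 transcript was seen in 1 of 28 libraries at E10 and 1 of 29 at E11. Cfl1, cofilin, which severs filaments, was higher in EHT than in HE cells (6.85 and 8.21 transcripts in E10 HE and EHT cells, 8.63 and 9.98 in E11 ones) and then lower in IAHC cells, at 4.67 and 4.58 (log2 -0.80, interval -0.99 to -0.64, and -1.11, interval -1.28 to -0.97). Wdr1, which helps cofilin, stayed between 0.603 and 1.04 transcripts per cell.

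The pair of cytoplasmic actins went in opposite directions from EHT to IAHC. Actb, β-actin, had 18.8, 23.2, 21.5 and 16.4 transcripts per cell in E10 non-HE, HE, EHT and IAHC cells, and 29.7, 25, 27.8 and 18.2 at E11. Actg1, γ-actin, had 11.47, 10.8, 10.1 and 13.7 at E10 and 16.8, 12, 12.6 and 15.9 at E11. Over that step Actb was lower by 0.39 (0.30 to 0.49) and 0.61 (0.53 to 0.70) on the log2 scale and Actg1 higher by 0.43 (0.32 to 0.54) and 0.34 (0.22 to 0.47). The coding sequences of these genes are near copies, but their 3′ ends, which CEL-Seq reads, differ. The monomer-holding thymosins were lower in EHT than in HE cells. Tmsb4x went from 23.0 to 14 transcripts per cell at E10 (log2 -0.71, interval -0.80 to -0.64) and from 21.8 to 18.7 at E11 (-0.22, interval -0.35 to -0.09), and Tmsb10 from 8.82 to 6.21 and from 9.87 to 6.59. In IAHC cells Tmsb4x stood at 15.4 and 15.8 and Tmsb10 at 5.40 and 8.16.

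The capping protein subunits, which close the growing end of a filament, were between 0.279 and 1.83 transcripts per cell in all populations, and Capzb differed by at most 0.16 on the log2 scale at either step, while Capza2 was lower from HE to IAHC cells at E11 (log2 -0.79, interval -1.46 to -0.35). Of the adhesion and crosslinking genes, Flna, filamin A, was lower from HE to EHT (1.204 to 0.838 at E10 and 1.96 to 1.11 at E11) and then at 0.973 and 1.58 in IAHC cells. Vcl, vinculin, of focal adhesions, had 0.5, 0.217 and 0.5 transcripts per cell in E11 HE, EHT and IAHC cells (log2 -0.92 and then 0.92, with intervals of -2.44 to -0.07 and 0.28 to 2.29) but 0.378, 0.403 and 0.397 at E10. Zyx, zyxin, and Tln1, talin 1, which links integrins to actin, had intervals that included 0 at both steps and both stages.

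Set end to end, from HE to IAHC, 6 of 32 members were past 2-fold at E10, beside 32.8% of 1728 genes. Arpc1b was higher (log2 1.59) and Pfn1, Myl12a, Tpm4, Rdx and Vim were lower. At E11 6 of 36 were past 2-fold, beside 39.1% of 2681 genes, and all of these, Pfn1, Cap1, Myl12a, Myl12b, Rdx and Vim, were lower. Cap1 reached the floor of 0.5 transcripts per cell through HE only (0.5 against 0.0379 in IAHC cells), which fixed its direction. In the Arp2/3 class 6 of 8 genes were higher at each stage (median log2 0.28 and 0.37), and of 7 contractile genes 5 and 6 were lower (median -0.34 and -0.40). The medians over all genes were 0.16 and -0.08.

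Few members were past 2-fold in the comparisons away from the path. From non-HE to HE none of 32 members at E10 and none of 36 at E11 was past 2-fold, beside 7.46% and 7.49% of all genes. From type I to type II pre-HSCs none of 34 was, beside 2.09%. From IAHC to YS HSPCs Tmsb4x (15.4 to 7.62 transcripts per cell, log2 -1.01) and Tpm4 (log2 -1.21) were past 2-fold lower at E10, 2 of 31 members beside 11.6% of genes past 2-fold in either direction, and none of 35 was at E11, beside 7.79%. Tpm4 reached the floor through IAHC cells only (0.740 against 0.262 in YS HSPCs), which fixed its direction. In that comparison 26 of 31 members at E10 and 29 of 35 at E11 were lower in YS HSPCs (median log2 -0.23 and -0.27, beside 0.09 at both stages over all genes).

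Across single cells of 1 population the contractile and Arp2/3 sums hardly ran together or apart. Spearman's rho was 0.10 in 191 E10 EHT cells, 0.25 in 73 E10 IAHC cells, -0.03 in 290 E11 IAHC cells, 0.06 in 62 type I and 0.17 in 55 type II pre-HSCs. These cells share a fixed total of transcripts and, within a set, a library. The contractile sum was more closely tied to the monomer class, with rho from 0.19 in E10 EHT cells to 0.60 in type I pre-HSCs.

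Further lists of actin regulators, sorted by where they are known to be used, give the setting of these members. Of 20 genes typical of blood cells, 3 at E10 and 5 at E11 reached 0.5 transcripts per cell in HE or EHT cells, and of 20 genes typical of endothelial and mural cells 11 did at each stage. A gene near 0 in one population passes that floor only through the other, which fixes its direction, so levels are given as a description and no share past 2-fold is read from these lists. Coro1a, coronin 1A, an Arp2/3 regulator of leukocytes that is also among the hematopoietic markers used above, had 0.143, 1.01 and 2.48 transcripts per cell in E10 HE, EHT and IAHC cells and 0.109, 1.13 and 3.09 at E11. Cald1, caldesmon, which restrains myosin on actin, had 0.633 in HE and 0.0838 in EHT cells at E10 and 1.522 and 0.174 at E11. Directions from HE to EHT were mixed within both lists. Of the blood cell genes, 1 of 3 at E10 and 1 of 5 at E11 was lower. Of the endothelial and mural genes, 2 of 11 at E10 and 3 of 11 at E11 were higher. Of 24 genes used in most cells, 9 at E10 and 14 at E11 reached the same floor, and 4 and 10 of these were lower in EHT than in HE cells. Marcks, a membrane-bound actin binder, was lower at both stages, from 2.22 to 0.639 and from 4.28 to 1.65.

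The wIAHCs, single clusters picked whole from aorta slices after c-kit staining, allowed tests, since each cluster was a library. Of 109 libraries 57 had at least 5000 transcripts, 21 of 36 E10 ventral, 7 of 18 E10 dorsal, 17 of 34 E11 ventral and 12 of 21 E11 dorsal ones, with 5099 to 115328 transcripts. Clusters from the same embryo could not be recognised, so p-values measure the spread between these clusters only, and the side was read from the column names. After a filter on low counts 11 members were among 260 genes tested with edgeR's quasi-likelihood test and Benjamini-Hochberg adjustment. In a bulk sample such as a cluster, fewer cells of a type and less RNA per cell cannot be told apart.

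From E10 to E11 averaged over sides, 1 of the 11 members passed the test, Actg1, which fell, beside 32.3% of all genes tested. Per 5000 transcripts Actg1 ran from 8.86 to 26.7 with a median of 14.5 in the 21 E10 ventral libraries and from 12.9 to 31.8 with a median of 16.3 in the 7 E10 dorsal ones. At E11 it ran from 5.32 to 18.2 with a median of 10.1 in the 17 ventral and from 2.53 to 16.9 with a median of 9.02 in the 12 dorsal libraries. The groups overlapped, with the medians of both E11 groups below those of both E10 groups. The log2 change averaged over sides was -0.49 (SE 0.14, edgeR adjusted p = 0.00389). It was -0.74 (SE 0.23, edgeR adjusted p = 0.0265) among dorsal clusters, where 9.23% of genes passed, and -0.25 (edgeR adjusted p = 0.211) among ventral ones, where 31.2% of genes and none of the 11 members passed. The interaction of stage and side, 0.49, did not pass (edgeR adjusted p = 0.493), so the change is not shown to differ between sides. By their column names all E10 clusters were of 1 set and E11 clusters of 2, and what these sets are is not given in the sources used here. Without the first E11 set the averaged change was -0.34 (edgeR adjusted p = 0.0991) and the dorsal one -0.42 (edgeR adjusted p = 0.342). Among dorsal clusters the call was also lost without E10 dorsal library 3 (-0.60, edgeR adjusted p = 0.0961) or dorsal library 4 (-0.74, edgeR adjusted p = 0.0509).

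Actb was at 7.99 to 31.7 with a median of 18.9 and 9.23 to 43.9 with a median of 17.3 in E10 ventral and dorsal clusters, and at 13.0 to 34.8 with a median of 21.2 and 11 to 44.3 with a median of 24.5 at E11 (log2 change averaged over sides 0.30, SE 0.16, edgeR adjusted p = 0.153). Its call depended on the depth of the libraries kept, since with those of at least 3000 transcripts Actb rose by 0.59 (edgeR adjusted p = 0.0094), and its adjusted p ran from 0.0094 to 1.0 over the alternatives. The highest number of molecular tags of a member in a library was 202. No gene passed between ventral and dorsal clusters at either stage or for the interaction in edgeR or in DESeq2, with 23, 20 and 26 of the 260 genes at an unadjusted p below 0.05 in edgeR and 25, 23 and 27 in DESeq2. The members with the smallest p were Vim between sides at E11 (ventral against dorsal -0.58, edgeR adjusted p = 0.601), Pfn1 between sides at E10 (-0.83, edgeR adjusted p = 0.555) and Pfn1 for the interaction (1.49, edgeR adjusted p = 0.408). Among ventral clusters it was Myl6 between stages (0.31, edgeR adjusted p = 0.163), which was at 0.47 without the first E11 set (edgeR adjusted p = 0.0332) and at -0.20 without the second (edgeR adjusted p = 0.704).

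**Figure D4:**
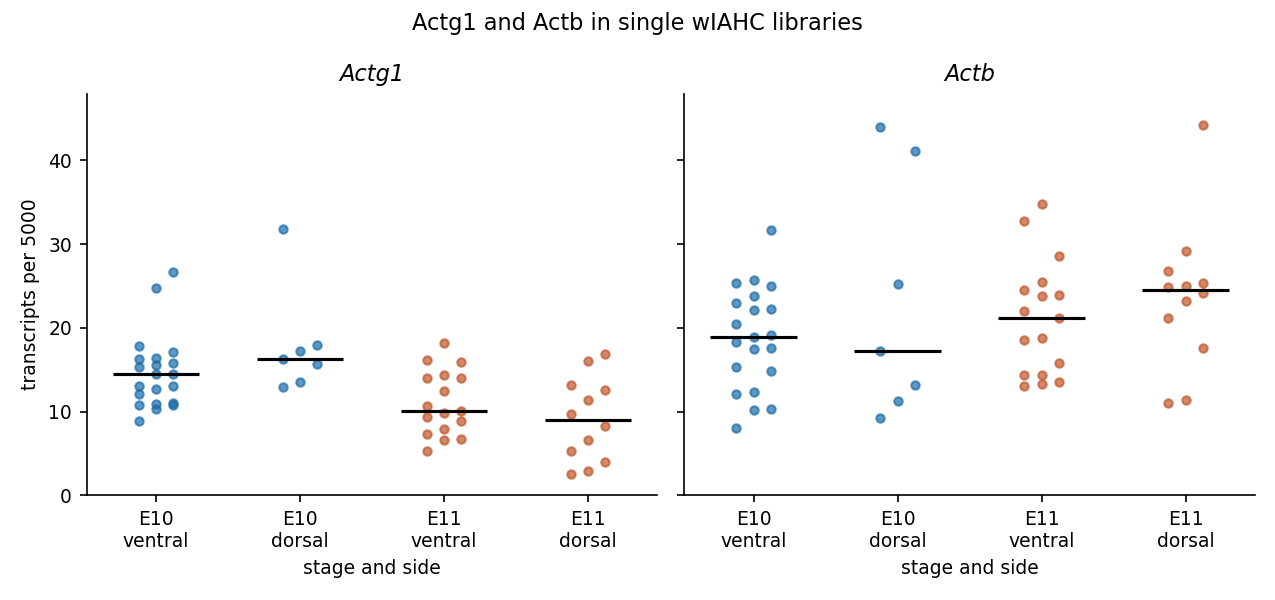
Actg1 and Actb in each wIAHC library, as transcripts per 5000 (linear axis from 0), by stage and side; each point is a library and each black line the median of its group. The medians of Actg1 are 14.5 and 16.3 at E10 and 10.1 and 9.02 at E11, with overlapping points, and those of Actb lie between 17.3 and 24.5.

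In the wIAHCs, Pfn1 and Vim were low, as in sorted IAHC cells, with differences that were not tested. Pfn1 had a median of 1.65 and 1.6 transcripts per 5000 in the 28 E10 and 29 E11 libraries, with 0 to 5.32 and 0 to 5.13 as the range, and Vim a median of 2.50 and 2.35, with 0.485 to 8.31 and 0 to 6.48. Sorted IAHC cells had means of 2.95 and 2.09 per 5000 for Pfn1 and 2.69 and 2.35 for Vim at E10 and E11. The Pfn1 medians of the wIAHCs lay below these means, more so at E10, and the Vim medians close to them. A median over libraries and a mean over cells are different measures. The mean of Pfn1 over the wIAHC libraries was also below that of the sorted cells, by little at E11. The E11 mean of the sorted cells was raised by the set at 5.36, so the direction at E11 is not settled. The ratio of summed contractile to summed Arp2/3 transcripts was 0.867 over E10 and 1.07 over E11 wIAHCs, with single libraries from 0.184 to 2.17 and from 0.517 to 3.41.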

How the data were processed

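The single cell tables hold estimated transcript counts of CEL-Seq libraries, corrected for tag collisions, which the authors down-sampled to a fixed total per cell and deposited with 0.1 added to each value. The submitters' processing notes name BWA 0.6.2-r126 and mm10. Here 0.1 was subtracted, which gave whole numbers, and transcripts were summed per population. The wIAHC table was deposited in expected counts, not down-sampled, and was rounded, spike-in rows being left out. For single cells, log2 ratios of means with a pseudocount of 0.1 were computed for genes that averaged 0.5 or more transcripts in 1 of the populations, and exact Poisson and conditional binomial 95% intervals were added (Python 3.11.15, scipy 1.17.1). The wIAHC contrasts used edgeR 4.0.16 (TMM, filterByExpr, all groups in 1 fit, threshold 0.05), with DESeq2 1.42.0 as an alternative. The E10 non-HE columns are named E11 and were placed by their labels. Doublets were not called. Full values were given for members past 2-fold from HE to EHT at both stages and for those leading a wIAHC contrast. They were also given for the most abundant of each class, except Capzb and Zyx, which were summarised. Other members were named after their values were seen. Members, classes and lists were chosen with earlier results of these data known. Values of the class of 3 further genes are not reported here.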

Additional observations from a re-analysis of the deposited data

Results flagged for a closer look

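In 108 tests, each of 1 member in 1 group of libraries or sorted sets, 7 found a value far from the others. Chance alone gives about 1 in 20. Only the E10 dorsal wIAHCs and the sets of the 2 E11 IAHC samples were examined. The members share these libraries, so the tests are not independent. Among the 7 E10 dorsal wIAHCs, Actg1 was 31.78 transcripts per 5000 in one library, the next being 17.95, and Myl12b was 3.028 in one, the next being 0.7334. Among the 4 sets of the E11 c-kit+CD31+ sample, Pfn1 was 5.36 transcripts per cell in one set, the next being 2.093, and Tpm3 was lowest at 3.102, the next being 4.02. Among the 5 sets of the E11 c-kit+ sample, Arpc5 was 2.571 in one set (next 1.4), Capza2 1.143 (next 0.5769) and Ezr 0.4375 (next 0.2857).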

How the results depend on the processing

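Among the results recomputed, 2 reversed their direction, both in wIAHCs and neither past the test, Actb between stages with no filter on low counts (-0.055) and Myl6 among ventral clusters without the second E11 set (-0.20). Of the main results, 276 of the values recomputed kept within their limits while 58 moved. Counts of members past 2-fold moved with the setting. With a pseudocount of 0.5 they were 0 for E10 HE to EHT, 0 for E10 IAHC to YS HSPC and 1 for E11 HE to EHT. With a fold of 1.5 they were 6 for HE to EHT at each stage, 6 for E10 EHT to IAHC, 6 for E10 IAHC to YS HSPC, 5 for E11 non-HE to HE, 10 for E11 EHT to IAHC, 4 for E11 IAHC to YS HSPC and 2 between pre-HSC types. E11 cells thinned to 3000 transcripts gave 1 for non-HE to HE, 1 for HE to EHT and 3 for EHT to IAHC. Centring on the median gene gave 4 for E10 EHT to IAHC and 1 for E11 HE to EHT. A floor of 0.2 gave 1 for E11 IAHC to YS HSPC and 2 between pre-HSC types, leaving out hemoglobin, ribosomal and mitochondrial genes gave 1 between pre-HSC types, purified IAHC cells gave 1 for E10 IAHC to YS HSPC, and either E11 IAHC sample alone gave 1 for IAHC to YS HSPC. Without single sets the counts ran from 1 to 2 for E10 HE to EHT, 2 to 4 for E10 EHT to IAHC, 1 to 2 for E10 IAHC to YS HSPC, 1 to 2 for E11 non-HE to HE, 0 to 1 for E11 IAHC to YS HSPC and 0 to 2 between pre-HSC types. The log2 change of the contractile to Arp2/3 ratio was -0.77 to -0.46 without single sets at E10 HE to EHT, -0.69 at E10 and -0.55 at E11 EHT to IAHC without the most abundant gene of each class, and -0.55 at E11 with the c-kit+ sample alone. The c-kit+CD31+ sample alone gave a smaller E11 drop than all IAHC cells, and the interval of its ratio overlapped that of EHT cells.

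In the wIAHCs, with no filter on low counts 485 genes passed between stages averaged over sides, 310 among ventral and 107 among dorsal clusters, 12 and 8 between sides at E11 and E10 and 21 for the interaction. With at least 10000 transcripts 132 ventral and 3 dorsal genes passed. Without the second E11 set 44 ventral genes passed and 1 between sides at E11. Members past the averaged test numbered 4 with no filter, 2 at 3000 (Actb and Actg1) and 2 at 10000 transcripts (Actg1 and Arpc4) and 0 without the first E11 set. The ventral count was 1 with no filter, 2 at 10000 transcripts (Actr2 and Arpc4) and 1 without the first E11 set (Myl6). The dorsal count was 2 with no filter and 0 at 3000 transcripts, at 10000 transcripts, without the library over 200 tags or without the first E11 set, and leaving out each E10 dorsal library in turn (chosen after seeing the data) gave 0 to 1. The causes were not tested. No paired analysis was possible because no wIAHC number is tied to an embryo and the single cell populations are 1 sample each. The pre-HSC types share 1 sample, and their sets of the same number were set side by side as values with no test. Genes under 0.5 transcripts per cell and E11 sets of 7 to 16 cells limit what these depths can show.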
